A study of Mus musculus with 9 samples.

Results

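The genes described here prepare peptides for MHC class I and load them onto it. They are the TAP transporter and its loading partners (Tap1, Tap2, Tapbp, Tapbpl), the interferon-induced catalytic subunits of the immunoproteasome (Psmb8, Psmb9, Psmb10), the PA28 proteasome activator (Psme1, Psme2) and the class I transactivator Nlrc5. These 10 genes were taken by symbol from the 22136 genes with reads summed over their listed transcripts, and all 10 were among the 12965 genes with enough reads to be tested. RNA was measured in subcutaneous tumors of YUMMER1.7, a mouse melanoma line made by UV irradiation of YUMM1.7, grown in immunocompetent C57BL/6J mice, after treatment of the growing tumors with an antibody. One group of 3 libraries came from tumors given anti-B7-H3, an antibody to an immune checkpoint protein carried by tumor and stromal cells. A second group of 3 came from tumors given anti-PD1, an antibody to the inhibitory receptor PD-1 of T cells, and the control group of 3 came from tumors given an IgG isotype control. All groups carried the same tumor line in the same mouse strain, and the age of the mice, the antibody doses and the time of sampling are not given in the sources used here. Whether the 3 libraries of a group are from different mice is not stated, and a p-value here reflects only how far these samples spread, which may be technical. The series title also names a combined blockade with CD47, which is not analysed here.

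Cells cut their own proteins into peptides with the proteasome. Interferon gamma replaces the constitutive catalytic subunits Psmb5, Psmb6 and Psmb7 of newly built proteasomes with Psmb8, Psmb9 and Psmb10, and the resulting immunoproteasome cuts more often after residues that suit the class I groove. TAP, a pair of ABC transporter chains, pumps the peptides into the endoplasmic reticulum, where tapasin (Tapbp) holds TAP and the empty class I molecule together and the tapasin-related protein (Tapbpl) edits the peptide that is bound. Nlrc5 is drawn to the conserved promoter boxes of class I genes by DNA-binding partners and raises their transcription, and its known targets include Tap1 and Psmb9. In tumors this set of genes is known for its rise where T cells release interferon gamma and for its loss in cells that escape T cells.

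Of the members, 4 lie next to each other in the MHC on chromosome 17 of the GRCm38 build. In the GENCODE M21 annotation Psmb9 spans chr17:34181987-34187764 on the - strand, Tap1 chr17:34187553-34197225, Psmb8 chr17:34197721-34201454 and Tap2 chr17:34203527-34216321, the last 3 on the + strand. Tapbp lies on the same chromosome at chr17:33915899-33929292 (+). Psme1 at chr14:55578123-55581529 (+) and Psme2 at chr14:55587441-55591113 (-) neighbour each other on chromosome 14, while Nlrc5 at chr8:94434356-94527272 (+), Psmb10 at chr8:105935735-105938444 (-) and Tapbpl at chr6:125223933-125231860 (-) lie apart. The gene spans of Psmb9 and Tap1 overlap on opposite strands, but no coding exon of any member overlaps one of another gene. That bears on the values because the listed length equals the coding length in 92.2% of coding transcripts with an annotation match, which leaves no room for a UTR in those.

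Promoter sequence was available for 7 of the 10 members in the RefSeq table of the GRCm38.p6 assembly, which does not list Tap2, Tapbpl or Nlrc5. The stretches of the cluster that hold the start of a gene are shown because Tap1 and Psmb9 are transcribed away from each other from 1 short shared interval. Their reads were also among those that kept the closest ratio across libraries, as were those of members on different chromosomes, such as Tapbp and Psmb10. The interval between the RefSeq starts of Tap1 and Psmb9 is chr17:34187331-34187555, and the stretch before the RefSeq start of Psmb8 is chr17:34197945-34198194. By the GENCODE M21 spans given above, both stretches lie inside a gene, the interval in Psmb9 and the other in Psmb8. Both are written 5′ to 3′ on the + strand, the strand of Tap1 and Psmb8, with matched motifs in capitals.
Tap1-Psmb9 interval: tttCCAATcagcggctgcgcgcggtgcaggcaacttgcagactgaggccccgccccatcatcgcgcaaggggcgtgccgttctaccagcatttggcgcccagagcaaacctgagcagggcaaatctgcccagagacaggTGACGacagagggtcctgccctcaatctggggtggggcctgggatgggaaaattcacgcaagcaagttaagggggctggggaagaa
Psmb8 promoter: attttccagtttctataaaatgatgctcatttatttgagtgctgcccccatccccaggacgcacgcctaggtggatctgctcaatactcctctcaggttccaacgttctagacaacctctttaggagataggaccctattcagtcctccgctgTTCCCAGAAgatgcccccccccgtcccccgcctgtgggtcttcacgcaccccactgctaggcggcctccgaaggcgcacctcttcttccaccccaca

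A search on both strands was made for CCAAT, the letters of the CCAAT box, TGACG, the core of the X2 box in class I promoters, TTCNNNGAA, the GAS element of interferon gamma response, and GAAANNGAAA, the ISRE bound by interferon regulatory factors. The 225-base interval between Tap1 and Psmb9 held 1 CCAAT and 1 TGACG. Over windows of that length before 32851 RefSeq starts, CCAAT was found in 31.6% and TGACG in 16.8%. The 250 bases before the RefSeq start of Psmb8 held 1 GAS element and no other of the motifs, while 7.02% of all windows of that length held a GAS element. In the 250 bases before their starts, Tapbp held 2 CCAAT, each of the listed Psme2 starts held 1 TGACG, and Psmb10 and Psme1 held none of the 4 motifs. A match of letters does not show that a factor binds, and a missing match says only that these letters are not in this window.

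The libraries differed in depth in a way that touches every comparison with IgG. Estimated reads came to between 10105153 and 15447583 in anti-B7-H3 libraries, between 8627930 and 11256181 in anti-PD1 libraries and between 13624172 and 27288766 in IgG libraries. A set of 12 genes made of major satellite repeat, the tandem DNA beside mouse centromeres, took 5.24 to 28.2% of reads with anti-B7-H3, 14.6 to 38.2% with anti-PD1 and 87.0 to 92.1% with IgG. Outside these genes, 7232196 to 14404557 reads remained with anti-B7-H3, 5320073 to 9578312 with anti-PD1 and 1218985 to 3533214 with IgG. A background measured on 1509 genes for odorant and vomeronasal receptors, silent in most tissues, amounted to 40.4 to 198 CPM (counts scaled to a fixed total) of the remaining reads with anti-B7-H3, 78.1 to 280 with anti-PD1 and 767 to 4969 with IgG. The label of the tumor was checked against 8 melanocyte genes, of which only Mitf had enough reads to be tested. Tyr and Mlana had 0 reads in all 3 anti-B7-H3 libraries and Tyrp1 had 0 in all 3 anti-PD1 libraries, Sox10 had at most 18 reads and Pmel at most 7 in any library, so the melanocytic identity of the tumor cells is not visible in these genes.

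Group means of all 10 members were highest with anti-B7-H3, but none of the members passed the test in any comparison, and the libraries of each group spread widely. Levels are given as CPM scaled by TMM (trimmed mean of M values), so that each is relative to the typical gene of its library. Differences are log2 fold changes with their standard error (SE) from edgeR's quasi-likelihood test over all 9 libraries, and adjusted p-values are Benjamini-Hochberg values over all 12965 genes, with 0.05 as the threshold. In every comparison 0 of the 10 members passed, and at an unadjusted p below 0.05 the count was also 0. The share of all tested genes that passed was 0.555% for anti-B7-H3 relative to IgG, 0.393% for anti-PD1 relative to IgG and 0% for anti-B7-H3 relative to anti-PD1, and at an unadjusted p below 0.05 these shares were 10.5%, 18.5% and 6.48%. DESeq2 and limma-voom with quality weights also called 0 members in every comparison. No member had groups without overlap in any comparison, while 7.72% of all genes lay wholly higher and 8.53% wholly lower with anti-B7-H3 than with IgG, 11.1% and 11.9% with anti-PD1 than with IgG, and in the last comparison 7.55% and 7.89% with anti-B7-H3 than with anti-PD1. Behind anti-B7-H3, the IgG mean was second for the 4 loading genes and Nlrc5, and the anti-PD1 mean for the 3 catalytic subunits and both PA28 chains, and neighbouring means in these orders did not differ beyond the spread of the libraries.

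**Figure D1:**
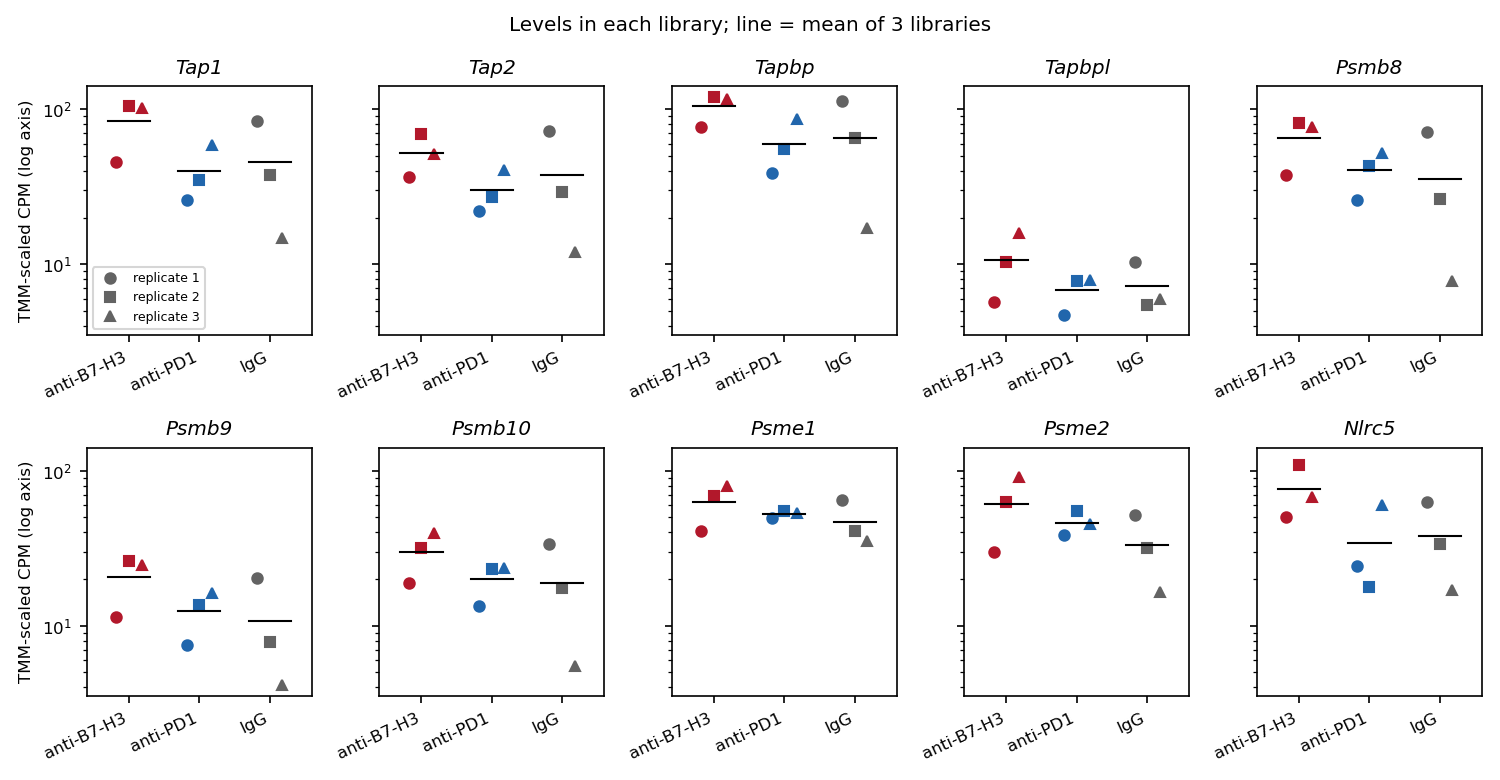
Level of each of the 10 genes in each library (TMM-scaled CPM, log axis), by treatment group, with replicates 1, 2 and 3 as circle, square and triangle and the mean of 3 libraries as a line. The anti-B7-H3 mean is the highest for all 10 genes. IgG replicate 1 lies among the anti-B7-H3 values, except for Tap2, where it is the highest library. IgG replicate 3 is the lowest library for 9 genes.

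TAP carries the cut peptides into the endoplasmic reticulum. Tap1, the chain that forms TAP together with Tap2, had 45.9, 105 and 101 CPM with anti-B7-H3, 25.8, 35.1 and 58.6 CPM with anti-PD1, and 84.5, 37.5 and 14.7 CPM with IgG, in replicates 1, 2 and 3. Replicates 2 and 3 of anti-B7-H3 stood above all other libraries, but replicate 1 lay below IgG replicate 1, so the groups overlapped. The group means were 84.1 ± 33.1 CPM with anti-B7-H3, 39.8 ± 16.9 with anti-PD1 and 45.6 ± 35.6 with IgG (SD, n = 3 each). The fitted log2 difference of Tap1 was 0.86 ± 0.57 (SE) for anti-B7-H3 relative to IgG (adjusted p = 0.657, edgeR's quasi-likelihood test). It was -0.22 ± 0.57 for anti-PD1 relative to IgG and 1.08 ± 0.56 for anti-B7-H3 relative to anti-PD1, with adjusted p-values of 0.876 and 0.764.

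Tap2, the partner chain, had 36.6, 69.5 and 51.6 CPM with anti-B7-H3, 22.1, 27.1 and 40.5 CPM with anti-PD1, and 72.6, 29.2 and 11.97 CPM with IgG. Its highest library of all was IgG replicate 1 and its lowest IgG replicate 3, so the IgG values spanned both other groups. The log2 difference was 0.44 ± 0.52 for anti-B7-H3 relative to IgG, the smallest relative to its SE of the 10 genes, -0.37 ± 0.52 for anti-PD1 relative to IgG and 0.81 ± 0.51 for anti-B7-H3 relative to anti-PD1. Tap1 and Tap2 share 44 of the 2145 words of 31 bases in the Tap1 coding sequence. In reads, Tap1 exceeded Tap2 in every library, with ratios of 1.25, 1.51 and 1.97 with anti-B7-H3, 1.16, 1.29 and 1.45 in anti-PD1 tumors, and 1.16, 1.29 and 1.23 with IgG.

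Tapbp, tapasin, was the most abundant member by CPM, with 76.8, 119.5 and 117 CPM under anti-B7-H3, 39.0, 55.2 and 86.0 CPM under anti-PD1, and 112, 65.4 and 17.03 CPM under IgG. IgG replicate 1 lay between anti-B7-H3 replicate 1 and the other two anti-B7-H3 libraries. The log2 difference was 0.66 ± 0.53 for anti-B7-H3 relative to IgG, -0.13 ± 0.53 for anti-PD1 relative to IgG and 0.79 ± 0.53 for anti-B7-H3 relative to anti-PD1. Tapbpl, the peptide editor that works outside the TAP complex, was the least abundant, with 5.68, 10.3 and 15.9 CPM under anti-B7-H3, 4.66, 7.81 and 7.85 CPM under anti-PD1, and 10.3, 5.47 and 5.98 CPM under IgG. It was the only member whose lowest library was anti-PD1 replicate 1 and not IgG replicate 3. These values rested on 64 and 13 estimated reads of Tapbpl, so their order is poorly determined. The log2 difference was 0.55 ± 0.39 for anti-B7-H3 relative to IgG, -0.10 ± 0.40 for anti-PD1 relative to IgG and 0.64 ± 0.36 for anti-B7-H3 relative to anti-PD1. Adjusted p-values of Tap2, Tapbp and Tapbpl lay between 0.680 and 0.929 over the 3 comparisons in edgeR's quasi-likelihood test.

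Among the catalytic subunits, Psmb8 (LMP7, which takes the place of Psmb5 and cuts after hydrophobic residues) had 37.9, 81.9 and 77.3 CPM with anti-B7-H3, 26.2, 42.8 and 52.4 CPM with anti-PD1, and 71.8, 26.3 and 7.82 CPM with IgG. IgG replicate 1 lay close to the upper anti-B7-H3 libraries and IgG replicate 3 far below all others, a 9.18-fold range within the control group on 369 and 17 estimated reads. The log2 difference was 0.86 ± 0.63 for anti-B7-H3 relative to IgG (adjusted p = 0.692, edgeR's quasi-likelihood test), 0.16 ± 0.63 for anti-PD1 relative to IgG and 0.70 ± 0.62 for anti-B7-H3 relative to anti-PD1. The SE of Psmb8 was the largest of the 10 members in each comparison.

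Psmb9 (LMP2, which takes the place of Psmb6) had 11.4, 26.1 and 24.6 CPM with anti-B7-H3, 7.50, 13.6 and 16.4 CPM with anti-PD1, and 20.2, 7.82 and 4.14 CPM with IgG. Its log2 difference of 0.89 ± 0.51 for anti-B7-H3 relative to IgG was among the larger ones (adjusted p = 0.591, edgeR's quasi-likelihood test), against 0.17 ± 0.52 for anti-PD1 relative to IgG and 0.72 ± 0.48 for anti-B7-H3 relative to anti-PD1. Psmb10 (MECL-1, which takes the place of Psmb7) had 18.7, 31.7 and 39.4 CPM with anti-B7-H3, 13.3, 23.3 and 23.7 CPM with anti-PD1, and 33.5, 17.4 and 5.52 CPM with IgG. All 3 subunits had the same order of libraries within IgG, replicate 1 above 2 above 3, and within anti-PD1, replicate 1 lowest and 3 highest. For Psmb10 the log2 difference was 0.62 ± 0.49 for anti-B7-H3 relative to IgG, 0.04 ± 0.49 for anti-PD1 relative to IgG and 0.57 ± 0.48 for anti-B7-H3 relative to anti-PD1. IgG replicate 3 rested on 9 estimated reads of Psmb9 and 12 of Psmb10.

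PA28 is a ring of the Psme1 (PA28 alpha) and Psme2 (PA28 beta) chains that opens the end of the proteasome barrel. Psme1 had 40.6, 68.8 and 79.3 CPM with anti-B7-H3, 49.8, 54.9 and 53.5 CPM with anti-PD1, and 65.0, 41.0 and 35.0 CPM with IgG. It varied least among the members, with a range of 1.10-fold within anti-PD1, and its lowest anti-B7-H3 library lay below every anti-PD1 library. The log2 difference was 0.41 ± 0.28 for anti-B7-H3 relative to IgG (adjusted p = 0.652, edgeR's quasi-likelihood test), 0.16 ± 0.28 for anti-PD1 relative to IgG and 0.26 ± 0.27 for anti-B7-H3 relative to anti-PD1. Psme2 had 29.9, 62.9 and 90.8 CPM with anti-B7-H3, 38.6, 54.7 and 45.4 CPM with anti-PD1, and 51.6, 32.0 and 16.6 CPM with IgG. Its log2 difference of 0.85 ± 0.43 for anti-B7-H3 relative to IgG had the lowest adjusted p of the 10 members in that comparison (0.542, edgeR's quasi-likelihood test), and the others were 0.44 ± 0.43 for anti-PD1 relative to IgG and 0.40 ± 0.42 for anti-B7-H3 relative to anti-PD1.

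The values of Psme2 carry an uncertainty of read assignment. Psme2b, a copy on chromosome 11, has a coding sequence of the same 720 bases that is 99.3% identical, and 543 of the 690 words of 31 bases in Psme2 also occur in it. Psme2b itself had 2.56, 4.31 and 1.93 CPM with anti-B7-H3, 1.82, 0.819 and 1.96 CPM with anti-PD1, and 0.779, 1.23 and 0 CPM with IgG, or at most 155 estimated reads in a library. These levels were a small part of those of Psme2 in every library. Psme1 and Psme2 share no such word.

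Nlrc5 had 50.2, 109 and 68.1 CPM with anti-B7-H3, 24.2, 17.9 and 60.0 CPM with anti-PD1, and 63.3, 33.9 and 17.03 CPM with IgG. Anti-B7-H3 replicate 2 was the highest library, and anti-PD1 replicate 3 and IgG replicate 1 were the libraries of the other groups that reached the anti-B7-H3 values. The mean was 75.8 ± 30.2 CPM with anti-B7-H3, 34.0 ± 22.7 with anti-PD1 and 38.0 ± 23.4 with IgG (SD, n = 3 each). The fitted log2 difference of 0.97 ± 0.55 for anti-B7-H3 relative to IgG and that of 1.16 ± 0.55 for anti-B7-H3 relative to anti-PD1 were the largest of the 10 members in those comparisons. The adjusted p-values were 0.587 and 0.754 in edgeR's quasi-likelihood test, and the unadjusted p of 0.063 relative to anti-PD1 was the smallest of any member in any comparison. For anti-PD1 relative to IgG the log2 difference of Nlrc5 was -0.19 ± 0.55.

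**Figure D2:**
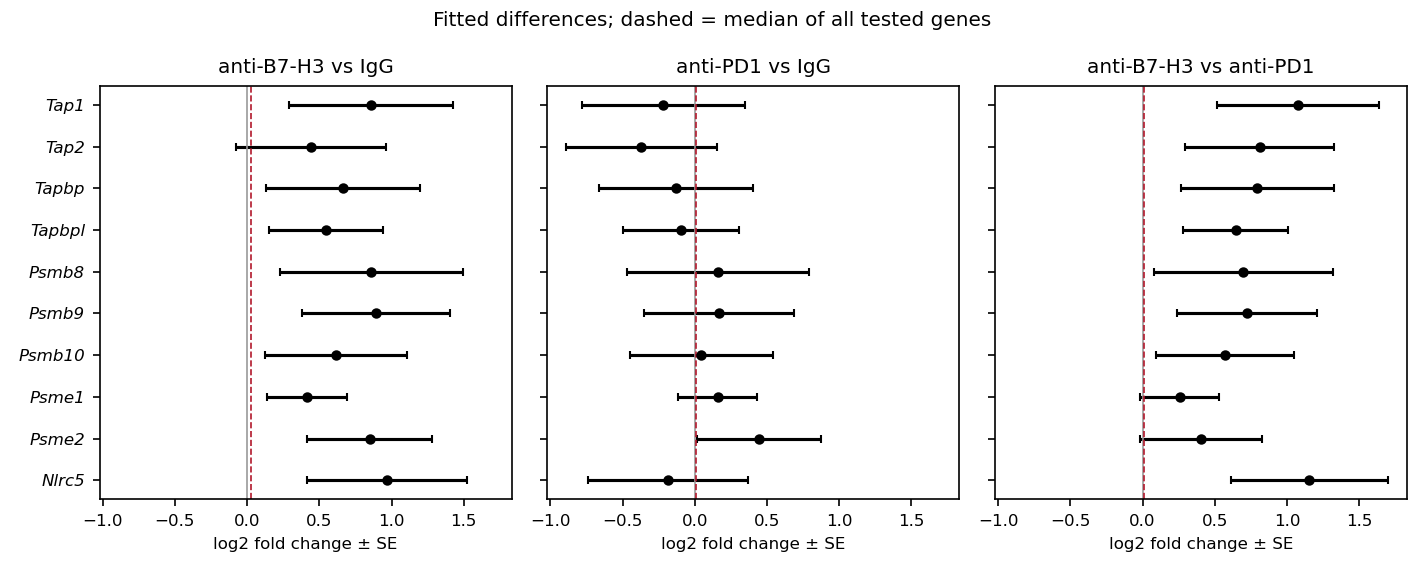
Fitted log2 fold change of each gene with its standard error in the 3 comparisons, with the median of all tested genes as a dashed line. All 10 values are above 0 for anti-B7-H3 relative to IgG and relative to anti-PD1, and 5 are above 0 for anti-PD1 relative to IgG.

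Set side by side, the comparisons with IgG share their control libraries. For anti-B7-H3 relative to IgG the log2 differences of all 10 members were positive, with a median of 0.76, while the median over all tested genes was 0.03 and 53.3% of genes were positive. For anti-PD1 relative to IgG 5 were positive and 5 negative, with a median of -0.03 against 0.01 over all genes. The negative ones were the 4 loading genes and Nlrc5, and the positive ones were the 3 catalytic subunits and both PA28 chains. For anti-B7-H3 relative to anti-PD1, which has no IgG library but the same 3 anti-B7-H3 libraries as the first comparison, all 10 were positive, with a median of 0.71 against 0.01 over all genes, of which 51.1% were positive. The signs in these comparisons are therefore not independent of each other.

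These medians moved with single libraries and with the processing. Without IgG replicate 1 the median of the members was 1.30 for anti-B7-H3 relative to IgG and 0.53 for anti-PD1 relative to IgG, and without IgG replicate 3 it was 0.46 and -0.29. For anti-PD1 relative to IgG it was also above 0, at 0.15 and 0.02, without anti-PD1 replicate 1 or 2. For anti-B7-H3 relative to anti-PD1 the median over these omissions was lowest without anti-PD1 replicate 1, at 0.46, and highest without anti-B7-H3 replicate 1, at 0.97. With the receptor signal as a covariate, which stands apart in IgG, the median for anti-B7-H3 relative to IgG was -1.05 and all 10 members were negative, and for anti-B7-H3 relative to anti-PD1 the median was 0.32 with 9 of 10 positive. With library totals in place of TMM, which count the satellite reads, all 10 members were called higher relative to IgG with each antibody. So were 12456 of the 12965 tested genes for anti-B7-H3 and 12287 for anti-PD1, so the member count is no more than that of most genes. The member medians of 4.15 for anti-B7-H3 and 3.21 for anti-PD1 then stood beside 3.37 and 3.15 over all genes.

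The spread within a group had the same shape for most members. In the IgG group replicate 1 was the highest library for 10 of 10 members and replicate 3 the lowest for 9. In the anti-B7-H3 group replicate 1 was the lowest for 10 of 10, and replicates 2 and 3 were the highest for 6 and 4. In the anti-PD1 group replicate 3 was the highest for 8 and replicate 1 the lowest for 9. Averaged over the members, the log2 CPM of a library minus the mean of each gene over 9 libraries was -0.11, 0.85 and 0.88 with anti-B7-H3, -0.59, -0.14 and 0.26 in anti-PD1 tumors, and 0.65, -0.36 and -1.45 with IgG. The span within IgG was thus wider than the distance between any pair of group means.

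Some members kept their read ratio to each other more closely than others. Of the 45 pairs of members, the SD of the log2 read ratio over 9 libraries was smallest for Tap1 with Tapbp, Tap1 with Tap2 and Tap2 with Tapbp, each at 0.24. Tapbp with Psmb10, Tap1 with Psmb9 and Psmb9 with Psmb10 followed, each at 0.25. Tap1 and Psmb9 are the genes of the shared promoter interval printed above, but the pairs with Psmb10, which lies on another chromosome, were as close. The loosest pair was Tapbpl with Psmb8 at 0.78. In IgG replicate 3 these genes had 13 and 17 estimated reads, against 49 and 235 in IgG replicate 2. A single library with few reads thus weighs heavily on that value. Psmb9 stayed nearest to the mean pattern of the 10 members, with a root mean square difference of 0.17 in log2 CPM, and Nlrc5 at 0.44, Tapbpl at 0.43 and Psme1 at 0.42 were the farthest. These are descriptions across 9 libraries of unequal depth, each counted equally. Reads outside satellite genes ran from 1218985 in IgG replicate 3 to 14404557 in anti-B7-H3 replicate 3. All genes of a library share its depth and scaling.

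Of 10537 other genes with a mean of at least 1 log2 CPM, those nearest to the mean pattern of the members were H2-T23, H2-D1 and H2-T22, at root mean square differences of 0.13, 0.14 and 0.17. All of these encode MHC class I heavy chains. Cd3g, a chain of the T cell receptor complex, followed at 0.21, then Chac1 at 0.21, Ifi47, an interferon-inducible GTPase, at 0.23, Fgr, a kinase of myeloid cells, at 0.24, and Gpr65 at 0.24. The median over all ranked genes was 0.76.

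To compare levels between genes, CPM was divided by the coding length in kilobases of the transcript with the most reads. Psme2, Psme1, Psmb8 and Tapbp led with anti-B7-H3, at group means of 85.0, 83.9, 79.0 and 74.6 CPM per kilobase. With anti-PD1 the order of these 4 was Psme1 at 70.3, Psme2 at 64.2, Psmb8 at 48.7 and Tapbp at 43.0, and with IgG it was Psme1 at 62.7, Tapbp at 46.4, Psme2 at 46.3 and Psmb8 at 42.5 CPM per kilobase. Nlrc5, whose coding sequence of 5748 bases is the longest, and Tapbpl were the lowest in every group. Nlrc5 had 13.2, 5.92 and 6.62 CPM per kilobase and Tapbpl 7.82, 4.99 and 5.35 with anti-B7-H3, anti-PD1 and IgG. For most members 1 transcript held nearly all reads, from 90.9% for Nlrc5 to 100% for Tapbpl, Psmb8 and Psmb10, and Tapbp was the exception with 59.7% and 36.7% on transcripts of 1398 and 1401 bases.

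The exchange of catalytic subunits was measured as the ratio of the TPM (abundance per transcript length, scaled to a fixed total per library) of each interferon-induced subunit to that of the constitutive subunit it replaces. Psmb8 over Psmb5 was 1.20, 2.66 and 1.51 with anti-B7-H3, 0.967, 0.883 and 1.58 in anti-PD1 tumors, and 2.21, 0.842 and 0.445 with IgG. By TPM every anti-B7-H3 library thus had more Psmb8 than Psmb5, as did anti-PD1 replicate 3 and IgG replicate 1, and the other libraries had less, although by reads anti-PD1 replicate 1 was at a ratio of 1.02. Psmb9 over Psmb6 was 0.361, 0.768 and 0.554 with anti-B7-H3, 0.205, 0.349 and 0.383 in anti-PD1 tumors, and 0.767, 0.231 and 0.158 with IgG. Some of these depend on the measure. By reads the ratio was 0.515 in IgG replicate 1, 0.639 in anti-B7-H3 replicate 2 and 0.210 in anti-PD1 replicate 2. By the most read transcripts it was 0.509, 0.695 and 0.220 in the same libraries. Psmb10 over Psmb7 was 0.411, 0.673 and 0.684 with anti-B7-H3, 0.302, 0.292 and 0.545 in anti-PD1 tumors, and 0.953, 0.387 and 0.157 with IgG. In all 9 libraries Psmb9 and Psmb10 stayed below the subunits they replace.

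Mean log2 ratios differed by 0.85, 0.82 and 0.57 between anti-B7-H3 and IgG for Psmb8, Psmb9 and Psmb10, with p = 0.4, 0.3 and 0.6 in exact two-sided permutation tests. Between anti-PD1 and IgG the differences were 0.23, -0.01 and -0.09, and between anti-B7-H3 and anti-PD1 0.61, 0.83 and 0.66. With 3 libraries in each group no exact permutation test can go below p = 0.1, and after Benjamini-Hochberg adjustment over 15 tests all values were 0.5625 or above. IgG replicate 3 alone set the sign for Psmb10 over Psmb7, which differed by -0.08 between anti-B7-H3 and IgG without it. Psme1 over Psme2 was 1.29, 1.05 and 0.826 with anti-B7-H3, 1.22, 0.952 and 1.12 in anti-PD1 tumors, and 1.19, 1.21 and 1.99 with IgG, which are overlapping values. The TPM ratio of Tap1 to Tap2 was higher in all 3 anti-PD1 libraries (0.519, 0.640 and 0.533) than in the IgG libraries (0.325, 0.507 and 0.449), with an exact permutation p of 0.1, the smallest possible. That ratio rests on TPM summed over transcripts, which for Tap2 include listed transcripts of 273 and 74 bases with 5.46% and 0.48% of its reads. The read ratios of Tap1 to Tap2 given above were over 1 and overlapped between these groups. So did the TPM ratios of the most read transcript of each gene, at 1.15, 1.29 and 1.47 with anti-PD1 and 1.11, 1.35 and 1.32 with IgG. The separation therefore holds only for the summed TPM.

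**Figure D3:**
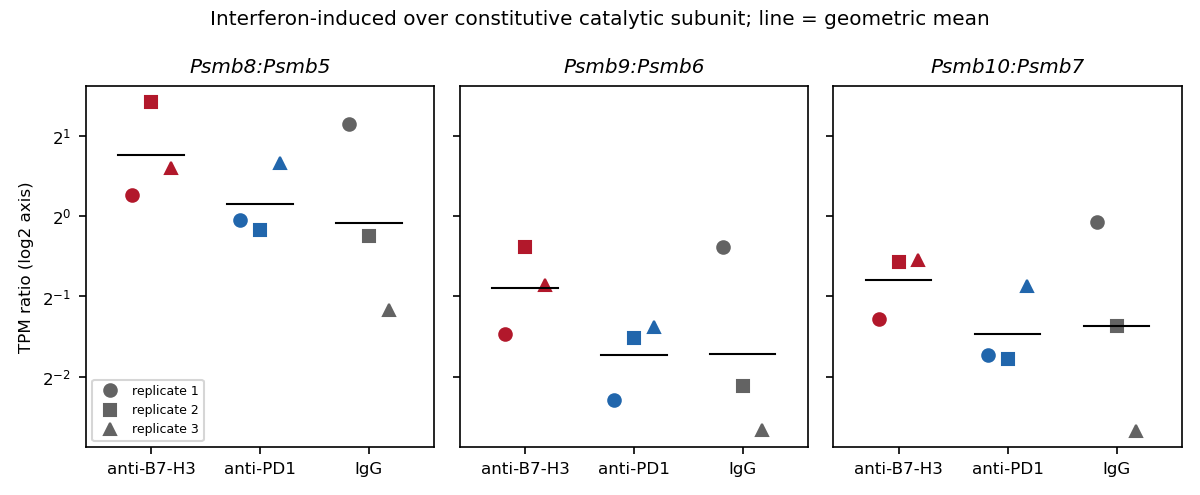
TPM ratio of each interferon-induced catalytic subunit to its constitutive counterpart in each library (log2 axis), with the geometric mean of each group as a line. IgG replicate 1 lies at or near the top and IgG replicate 3 at the bottom of each panel, so the groups overlap.

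The constitutive subunits that form the denominator of these ratios were measured in the same libraries. Psmb5 had 29.7, 29.1 and 47.8 CPM with anti-B7-H3, 25.6, 44.8 and 31.3 CPM with anti-PD1, and 30.6, 29.2 and 16.6 CPM with IgG. Psmb6 had means of 44.9 ± 6.33 CPM with anti-B7-H3, 52.3 ± 11.03 with anti-PD1 and 35.6 ± 5.38 with IgG, and Psmb7 of 51.0 ± 6.67, 56.9 ± 21.2 and 39.2 ± 5.75 CPM in the same order (SD, n = 3 each). All Psmb6 values of either antibody group lay above those of IgG, with log2 differences of 0.32 ± 0.20 for anti-B7-H3 and 0.54 ± 0.20 for anti-PD1 (adjusted p = 0.629 and 0.198, edgeR's quasi-likelihood test). Over the 14 genes of the constitutive core, all 14 log2 differences were positive with each antibody relative to IgG, with medians of 0.36 for anti-B7-H3 and 0.54 for anti-PD1. Between anti-B7-H3 and anti-PD1 the core had 2 positive and 12 negative values, with a median of -0.20, where all 10 members were positive. None of the core genes passed the adjusted threshold, and at an unadjusted p below 0.05 there were 2 higher with anti-B7-H3 and 6 higher with anti-PD1, against 3.58% and 7.67% of all genes.

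Beyond the core, of 20 genes of the regulatory cap and other activators, 18 were positive with each antibody relative to IgG, with medians of 0.26 for anti-B7-H3 and 0.30 for anti-PD1, and 7 were positive between anti-B7-H3 and anti-PD1. Psme3, the nuclear PA28 gamma chain, averaged 18.6 ± 1.75 CPM with anti-B7-H3, 17.1 ± 1.14 with anti-PD1 and 15.8 ± 0.898 with IgG (SD, n = 3 each). Of 6 assembly genes, Pomp, a chaperone for assembly of the constitutive core as well as the immunoproteasome core, had 12.8, 21.1 and 32.4 CPM with anti-B7-H3, 16.6, 23.4 and 17.3 CPM with anti-PD1, and 10.1, 11.1 and 17.03 CPM with IgG. Its log2 difference was 0.85 ± 0.33 for anti-B7-H3 relative to IgG and 0.63 ± 0.33 for anti-PD1 relative to IgG (adjusted p = 0.357 and 0.334, edgeR's quasi-likelihood test). No cap, activator or assembly gene passed the adjusted threshold in any comparison.

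The class I molecules that receive the peptides are the next step of the pathway. H2-D1, a class I heavy chain, had 297, 541 and 521 CPM with anti-B7-H3, 153, 231 and 349 CPM with anti-PD1, and 478, 220.3 and 98.9 CPM with IgG. H2-K1, another, had 201, 461 and 362 CPM with anti-B7-H3, 106 to 254 CPM with anti-PD1 and 51.5 to 323 CPM with IgG. B2m, the invariant light chain, averaged 419 ± 148 CPM with anti-B7-H3, 350 ± 44.4 with anti-PD1 and 285 ± 93.6 with IgG (SD, n = 3 each). For anti-B7-H3 relative to IgG all 13 genes of the class I list were positive, with a median log2 difference of 0.57, for anti-PD1 relative to IgG 6 of 13 were positive, and for anti-B7-H3 relative to anti-PD1 10 of 13. None passed the adjusted threshold in any comparison, and 1 gene was higher at an unadjusted p below 0.05 in each. In the same order, 3.58%, 7.67% and 3.92% of all genes were higher at that level.

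Interferon gamma and its signalling genes were measured beside the members because they drive these genes in many cell types. Ifng had 9, 12 and 25 estimated reads with anti-B7-H3, 1, 2 and 6 in anti-PD1 tumors, and 4, 0 and 0 with IgG, so its level is poorly determined. The anti-B7-H3 values of Ifng, 0.334 to 0.643 CPM, lay above the anti-PD1 values of 0.0729 to 0.236 CPM, with a log2 difference of 1.75 ± 0.92 (adjusted p = 0.759, edgeR's quasi-likelihood test). Over all tested genes, 7.55% lay wholly higher with anti-B7-H3 than with anti-PD1. Irf1, a transcription factor induced by interferon gamma, had 36.3, 78.1 and 84.6 CPM with anti-B7-H3, 44.1, 39.2 and 46.9 CPM with anti-PD1, and 60.5, 28.3 and 26.7 CPM with IgG. Replicates 2 and 3 of anti-B7-H3 were the highest for Irf1, as they were for most members, and anti-B7-H3 replicate 1 lay among the other groups. Of the 11 genes of the pathway 9 were positive for anti-B7-H3 relative to IgG, 6 for anti-PD1 relative to IgG and 8 for anti-B7-H3 relative to anti-PD1, and 0 passed the adjusted threshold.

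Nlrc5 has a class II counterpart, Ciita, and both act through the same DNA-bound factors. Ciita had 13.0, 20.7 and 19.6 CPM with anti-B7-H3, 6.78, 9.83 and 13.0 CPM with anti-PD1, and 9.73, 6.37 and 4.60 CPM with IgG. Unlike Nlrc5, it did not overlap between anti-B7-H3 and either other group, although its lowest anti-B7-H3 value of 13.05 CPM was barely above the highest anti-PD1 value of 12.99 CPM. With anti-B7-H3, 7.72% of all tested genes lay wholly higher than with IgG and 7.55% wholly higher than with anti-PD1. The log2 difference of Ciita was 1.32 ± 0.32 for anti-B7-H3 relative to IgG (adjusted p = 0.093, edgeR's quasi-likelihood test) and 0.85 ± 0.29 for anti-B7-H3 relative to anti-PD1 (adjusted p = 0.749), which miss the threshold. Rfx5, the DNA-binding partner of both, averaged 9.31 ± 2.02 CPM with anti-B7-H3, 7.91 ± 2.21 with anti-PD1 and 9.16 ± 2.54 with IgG (SD, n = 3 each). Of the 8 promoter factors 3 were positive with each antibody relative to IgG and 2 between the antibodies.

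These are bulk tumors, in which fewer cells of a type and less RNA per cell cannot be told apart, and markers of T and NK cells followed the members in part of the libraries. The summed level of 12 T and NK cell markers was 15.8, 30.7 and 33.4 CPM with anti-B7-H3, 10.4, 13.7 and 17.7 CPM with anti-PD1, and 26.3, 10.5 and 15.6 CPM with IgG. The order within anti-B7-H3 and anti-PD1 matched that of the member average, and IgG replicate 1 was high in both. IgG replicate 3, the lowest library of the members, had a higher marker sum than IgG replicate 2, but on few reads. Cd8a and Cd3e had 2 and 5 estimated reads in IgG replicate 3, and 6 and 2 in IgG replicate 2. The receptor background was also highest in IgG replicate 3 (4969 CPM), so the order of these libraries is poorly determined for the markers. Of the 11 tested, 9 were positive for anti-B7-H3 relative to IgG, 2 for anti-PD1 relative to IgG and 9 for anti-B7-H3 relative to anti-PD1. At an unadjusted p below 0.05, 1, 0 and 4 of them were higher in these comparisons, against 3.58%, 7.67% and 3.92% of all genes, and 0 passed the adjusted threshold. Cd8a had 1.64, 4.45 and 4.27 CPM with anti-B7-H3, 1.46, 1.04 and 2.51 CPM with anti-PD1, and 4.48, 0.670 and 0.920 CPM with IgG, and Cd3e ran from 0.223 CPM in IgG replicate 2 to 2.30 CPM in IgG replicate 3. The one listed marker at 0 in any library was Klrb1c, in IgG replicate 3, and the part of T and NK cells in the member values was not tested.

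Macrophages also express the members. The sum of 10 macrophage markers was 640 to 1182 CPM with anti-B7-H3, 479 to 1302 CPM with anti-PD1 and 222 to 605 CPM with IgG, and 10 of 10 were positive for anti-B7-H3 relative to IgG and 9 of 10 for anti-PD1 relative to IgG. Csf1r, the macrophage growth factor receptor, averaged 107 ± 24.4 CPM with anti-B7-H3, 109.7 ± 54.5 with anti-PD1 and 57.2 ± 21.6 with IgG, and Adgre1 (F4/80) 54.8 ± 24.2, 49.5 ± 31.9 and 19.4 ± 7.52 CPM in the same order (SD, n = 3 each). Every value of Csf1r, Adgre1 and Mrc1 in either antibody group lay above those of IgG. The other listed markers overlapped IgG somewhere: Lyz2 under anti-B7-H3, Cd68, C1qb and Fcgr1 under anti-PD1, and C1qa, C1qc and Itgam under both antibodies. Among all tested genes, 7.72% lay wholly above IgG under anti-B7-H3 and 11.1% under anti-PD1. No macrophage marker passed the adjusted threshold. At an unadjusted p below 0.05, 6 macrophage markers were higher for anti-B7-H3 relative to IgG and 4 for anti-PD1 relative to IgG, beside 3.58% and 7.67% of all genes. For anti-B7-H3 relative to anti-PD1 7 of 10 were positive, with a median of 0.19, and 0 reached that level. Sums of 7 skeletal muscle genes ran from 0.806 to 1416 CPM with anti-B7-H3, 58.8 to 974 CPM with anti-PD1 and 21.2 to 45.0 CPM with IgG. Their lowest library, anti-B7-H3 replicate 2, was the highest for 5 of the members, and their highest, anti-B7-H3 replicate 3, was the highest for 4. The part of these cell types in the member values was not tested.

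**Figure D4:**
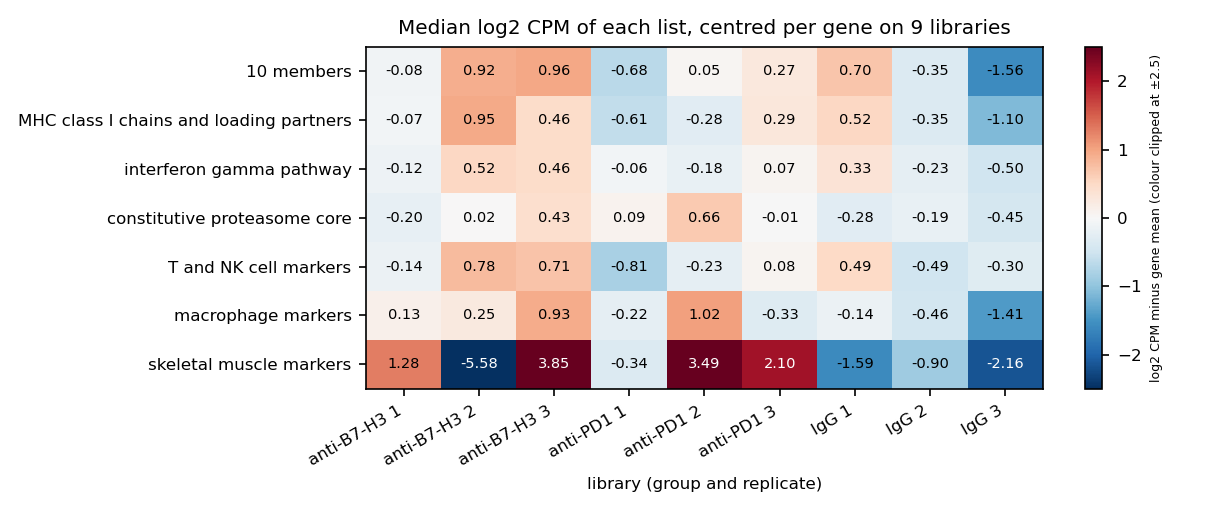
Median over each gene list of log2 CPM minus the mean of the gene over 9 libraries, by library, with the colour clipped at 2.5. The members, the class I list and the T and NK markers are high in anti-B7-H3 replicates 2 and 3 and IgG replicate 1, while the constitutive core peaks in anti-PD1 replicate 2 at 0.66.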

How the data were processed

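RNA was measured in 9 tumor libraries, 3 per treatment. Per the file headers, each deposited table gives estimated counts per transcript, TPM scaled by effective length by the authors, and the effective length, another deposited value that entered 1 alternative and is no measure of expression. Which quantifier made them is not given in the sources here, and the submitters' processing notes name FastQC 0.11.8 and GRCm38. Per the labels, total RNA depleted of ribosomal RNA was sequenced.

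Transcripts were matched by identifier to GENCODE M21 (57409 of 58083), and the listed length was the coding length for 92.2% of those with a coding sequence. Estimated counts were summed per gene and rounded to whole numbers. In R 4.3.3 with edgeR 4.0.16, genes were filtered with filterByExpr, scaled with TMM and fitted with 1 robust quasi-likelihood model over 9 libraries, with group as the only term, and p-values were adjusted by Benjamini-Hochberg. The script was tested on simulated data. Genes marked as satellite share more than 30% of their 15-base words with a satellite transcript. Likeness was ranked by log2 CPM with a prior count of 2.

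All members are named, with a set of related genes (constitutive subunits, class I, interferon and marker genes) and the 8 genes most like the members. Members, lists and named genes were chosen with earlier results of these data known. Alternatives were DESeq2 1.42.0, limma-voom with quality weights (limma 3.58.1), DESeq2 size factors, library totals, no low count filter, only the groups compared, a replicate block, satellite genes left out, receptor signal as a covariate, an effective length offset and each library left out. For the ratios they were read ratios and the most abundant transcript. The replicate numbers are not stated to pair the libraries. Intervals of the estimated counts would cover counting error only, and 3 libraries per group limit the precision.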

Additional observations from a re-analysis of the deposited data

How the results depend on the processing

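The count of members past the threshold was 0 in every comparison under every alternative but library totals, which called 10 of 10 for each antibody relative to IgG, with median log2 differences of 4.15 for anti-B7-H3 and 3.21 for anti-PD1. Library totals also called 12456 of 12965 genes higher for anti-B7-H3 and 12287 for anti-PD1. The cause of the differences below was not tested. Calls over all genes for anti-B7-H3 relative to IgG numbered 495 with DESeq2, 354 with limma-voom, 12529 with library totals, 1097 with no low count filter, 20 with only the groups compared, 482 with satellite genes left out and 0 with the receptor covariate. For anti-PD1 relative to IgG they numbered 814, 432, 12333, 731, 88, 311 and 6 under the same alternatives, 27 with the effective length offset and 124 with the replicate block. For anti-B7-H3 relative to anti-PD1 they numbered 20 with DESeq2, 1 with limma-voom, 23 with library totals and 4 with no low count filter. The correlation of the deviations of libraries with the same replicate number ran from -0.32 to 0.18. With 3 libraries per group these values cannot decide whether the numbers pair the libraries. With the replicate block the median member difference was 0.75 for anti-B7-H3 relative to IgG, -0.02 for anti-PD1 relative to IgG and 0.71 for anti-B7-H3 relative to anti-PD1, and it called 0 members. With the receptor covariate the log2 differences for anti-B7-H3 relative to IgG were -1.23 for Tap1, -0.92 for Tap2, -1.08 for Tapbp, -0.98 for Tapbpl, -1.21 for Psmb8, -1.02 for Psmb9, -1.29 for Psmb10, -0.54 for Psme1, -1.16 for Psme2 and -0.36 for Nlrc5, with a median of -1.05. For anti-PD1 relative to IgG it gave -1.47 for Psmb8, -1.34 for Psmb9, -1.47 for Psmb10, -0.57 for Psme1 and -1.08 for Psme2, with a median of -1.39, and for anti-B7-H3 relative to anti-PD1 it gave -0.074 for Psme2. Other sign changes for anti-PD1 relative to IgG came with limma-voom (-0.19 for Psmb8, -0.16 for Psmb9, -0.35 for Psmb10, -0.038 for Psme1), library totals (3.03 for Tap1, 2.89 for Tap2, 3.06 for Tapbp, 3.15 for Tapbpl, 3.05 for Nlrc5), no low count filter (0.0071 for Tap1, 0.085 for Tapbp, 0.13 for Tapbpl, 0.033 for Nlrc5, median 0.20), satellite genes left out (median 0.0045) and the effective length offset (0.23 for Tapbp, 0.12 for Nlrc5, median 0.13). Leaving out 1 library at a time gave 8 to 441 calls over all genes for anti-B7-H3 relative to IgG, 9 to 432 for anti-PD1 relative to IgG and 0 for anti-B7-H3 relative to anti-PD1, with member medians of 0.46 to 1.30, -0.29 to 0.53 and 0.46 to 0.97. For anti-PD1 relative to IgG it gave -0.60 to 0.56 for Tap1, -0.75 to 0.48 for Tap2, -0.55 to 0.50 for Tapbp, -0.30 to 0.28 for Tapbpl, -0.26 to 1.16 for Psmb8, -0.12 to 0.97 for Psmb9, -0.32 to 0.70 for Psmb10 and -0.87 to 0.38 for Nlrc5. The log2 ratio differences over the same omissions were -0.30 to 0.85 for Psmb8 to Psmb5, -0.48 to 0.66 for Psmb9 to Psmb6 and -0.74 to 0.56 for Psmb10 to Psmb7 for anti-PD1 relative to IgG, and -0.081 to 1.22 for Psmb10 to Psmb7 for anti-B7-H3 relative to IgG. They were -0.23 to 0.093 for Psme1 to Psme2 for anti-B7-H3 relative to anti-PD1 and -0.25 to 0.29 for Tap1 to Tap2 for anti-B7-H3 relative to IgG. The Tap1 to Tap2 difference of -0.39 between anti-B7-H3 and anti-PD1 was 0.26 from read ratios and 0.28 from the most abundant transcripts. Few reads outside satellite genes limit the IgG libraries most.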

Other observations

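Markers of other cell types that a skin tumor can hold gave the following summed levels. Of 6 fibroblast genes, 6 were positive for anti-B7-H3 relative to IgG and 3 for anti-PD1 relative to IgG, and their sums were 5355 to 8607 CPM with anti-B7-H3, 4290 to 6210 CPM under anti-PD1 and 2737 to 7724 CPM with IgG. The 5 endothelial genes summed to 55.3 to 104 CPM with anti-B7-H3, 76.4 to 84.7 CPM under anti-PD1 and 68.3 to 89.7 CPM with IgG. Sums of 6 dendritic cell genes lay at 5.39 to 7.41 CPM with anti-B7-H3, 5.03 to 8.71 CPM under anti-PD1 and 4.25 to 14.7 CPM with IgG, and 4 B cell genes stayed below 5 CPM in all libraries. The 5 keratinocyte genes summed to 0.472 to 1.74 CPM with anti-B7-H3, 0.863 to 1.97 CPM under anti-PD1 and 9.34 to 23.01 CPM with IgG, so every IgG library lay above the libraries of both antibody groups. In IgG these genes had from 2 to 82 estimated reads each. The receptor background, at 767 to 4969 CPM with IgG, was likewise above that of both antibody groups, and its part in these sums was not tested. The 8 melanocyte genes summed to 4.58 to 5.58 CPM with anti-B7-H3, 4.63 to 9.32 CPM under anti-PD1 and 7.15 to 21.2 CPM with IgG. Only 1 of the 4 B cell genes, 1 of the 5 keratinocyte genes and 1 of the 8 melanocyte genes had enough reads to be tested, and the keratinocyte gene had log2 differences of -4.08 for anti-B7-H3 and -3.78 for anti-PD1 relative to IgG, each at an unadjusted p below 0.05. Of the tested genes of these lists, 0 passed the adjusted threshold in edgeR's quasi-likelihood test.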
